A study of Mus musculus with 12 samples.

Results

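Histone genes were followed across 12 one-colour arrays of naive mouse CD4 T cells. The members are all probe sets (groups of probes summarised as 1 value) whose gene symbols every one begin with H1f, H2ac, H2bc, H2ax, H2az, H3c, H3f, H4c or an older Hist name. This rule found 52 of the 28853 probe sets on the array, naming 51 genes. Of these, 41 probe sets belong to the replication-dependent histones, 6 to replacement histones and 5 to histones known from germ cells. The replication-dependent probe sets divide into 4 for H1, 3 for H2A, 8 for H2B, 13 for H3, 12 for H4 and 1 shared by H2bc6 and H1f4. Several symbols are carried by 17 probe sets. Near-identical genes share most of them: 10 H3 probe sets share the same 12 genes, 5 H4 probe sets the same 11, and 1 H4c17 and H4c11. The genes of the remaining one, H2bc6 and H1f4, are of different types. The 41 replication-dependent probe sets thus name 28 distinct genes or gene groups, and levels of single copies within H3 or H4 are uncertain. A further 15 probe sets with a histone symbol and another symbol, such as H4bc24, a pseudogene or a predicted gene, lie outside the rule.

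Both genotypes were C57BL/6 mice: WT, and mice carrying a PP2Ac transgene (Tg), PP2Ac being the catalytic subunit of the phosphatase PP2A. Cells were left unstimulated (0 h) or were stimulated for 6 or 24 h in RPMI with 10% FCS, by plate-bound goat anti-hamster antibody with soluble anti-CD3 (0.25 ug/mL) and anti-CD28 (0.5 ug/mL), which engage the T cell receptor and its costimulator. Each of the 6 groups has 2 arrays, and the title of 1 array in each group ends in Rep. The arrays are called here the unmarked set and the set marked Rep. No label says that the arrays of a group came from separate mice or cultures. The p-values therefore rest on a spread between arrays that may be technical. The source label also calls the control mice transgenic. The sources used here give neither the promoter of the transgene nor the age of the mice.

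Histones package DNA: H2A, H2B, H3 and H4 form the core of the nucleosome, and H1 binds the linker between cores. Replication-dependent histone genes lie in clusters, are transcribed mainly in S phase under the coactivator NPAT, and give mRNAs that end in a stem-loop bound by SLBP instead of a poly(A) tail. Those mRNAs are lost quickly when DNA synthesis stops. Replacement histones such as H2A.Z and H3.3 are made throughout the cell cycle from polyadenylated mRNAs and enter chromatin outside replication. H2A.X is counted with the replacement histones here. Naive T cells are quiescent, and stimulation through the T cell receptor leads them from G0 into the cell cycle within about a day. The sources used here do not say how the cDNA was primed, which decides how well mRNAs without a poly(A) tail are read.

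All values are log2 intensities after quantile normalisation. The median probe set read 7.45, and 99% of probe sets read below 13.91. Cd4 read 12.98 to 13.75 and Cd3e 13.57 to 13.95 on all arrays, but genes of other cells were also present. Cd79a of B cells read 10.06 to 12.29 and S100a8 of neutrophils 8.29 to 12.86. The mean over 10 neutrophil markers was 7.88 to 8.94 on the 3 WT arrays marked Rep and 10.04 to 12.40 on the other arrays. The sets also stood apart at 24 h: 40 of 41 replication-dependent probe sets were higher in the unmarked set in both genotypes, against 24.8% of all 23410 probe sets tested. The median gap was 0.64 in WT and 0.69 in Tg at 24 h, but -0.02 and -0.04 at 6 h. Results at 24 h are therefore given for each set as well.

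The promoter stretches of 4 chromosome 13 members are shown because these genes gave the largest rises at 24 h (H2bc3, H2ac4 and H1f5) and the most lasting fall (H1f2). Each is the 250 bases before the RefSeq start (GRCm38.p6), in the direction of the gene, with matches on either strand in capitals to the CCAAT box, to the TATAAA form of the TATA box, and to the octamer ATTTGCAT.
H2bc3, chr13:23746484-23746733, plus strand: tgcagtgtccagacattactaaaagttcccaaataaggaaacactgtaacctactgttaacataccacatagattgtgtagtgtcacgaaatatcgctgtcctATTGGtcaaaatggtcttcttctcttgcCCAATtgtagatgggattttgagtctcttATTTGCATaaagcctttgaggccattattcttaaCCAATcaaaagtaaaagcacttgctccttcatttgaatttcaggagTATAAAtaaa
H2ac4, chr13:23750838-23751087, plus strand: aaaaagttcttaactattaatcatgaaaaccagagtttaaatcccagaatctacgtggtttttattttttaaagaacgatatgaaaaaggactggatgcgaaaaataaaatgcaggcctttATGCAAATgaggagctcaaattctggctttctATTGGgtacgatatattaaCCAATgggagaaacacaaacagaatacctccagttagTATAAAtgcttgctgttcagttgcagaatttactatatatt
H1f5, chr13:21780626-21780875, minus strand: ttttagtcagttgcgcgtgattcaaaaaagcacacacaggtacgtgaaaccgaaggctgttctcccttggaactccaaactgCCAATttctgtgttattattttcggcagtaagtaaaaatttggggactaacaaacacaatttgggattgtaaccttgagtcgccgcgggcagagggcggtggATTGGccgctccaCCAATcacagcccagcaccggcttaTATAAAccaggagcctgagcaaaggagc
H1f2, chr13:23738557-23738806, plus strand: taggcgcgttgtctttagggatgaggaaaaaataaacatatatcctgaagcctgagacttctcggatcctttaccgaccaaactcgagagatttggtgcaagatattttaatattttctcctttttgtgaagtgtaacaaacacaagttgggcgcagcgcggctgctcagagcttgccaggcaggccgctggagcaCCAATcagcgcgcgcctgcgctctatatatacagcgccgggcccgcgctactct
H2bc3, H2ac4 and H1f5 hold the CCAAT box more than once, on either strand, and the TATAAA motif once. H1f2 holds a single CCAAT box and no TATAAA match, which says only that these letters are not in this stretch. The octamer, known from H2A and H2B promoters, is in the H2bc3 stretch and, on the other strand, in that of H2ac4.

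These motifs were counted over windows of 300 bases, 250 before and 50 after the start, available for 45 of the 51 genes. None of the 123 matches in the members' windows overlapped a match to another of the motifs. CCAAT was in 29 of 37 replication-dependent windows (78.4%) and 37.4% of all 32851 windows. TATAAA was in 22 (59.5%), against 13.6% of all windows, and ATTTGCAT in 7 (18.9%), against 1.74%. The histone types differed in what their windows held. All windows of H1 (5), H2A (3), H2B (8) and H3 (10) genes held CCAAT, and 3 of 11 H4 windows did. ATTTGCAT lay in 2 of 3 H2A and 5 of 8 H2B windows and in none of the H1, H3 or H4 windows. H2ac8 and H2bc8 are transcribed in opposite directions from starts 180 bases apart. Their windows overlap, and the same octamer, CCAAT and TATAAA matches are counted for both genes. Of the 51 genes, 38 are on chromosome 13 and 7 on chromosome 3. The motif matches are descriptions of the sequence.

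Replication-dependent histones read below their resting level at 6 h in both genotypes, whereas the mean of 32 DNA replication probe sets was 9.57 to 9.64 at 0 h and 9.58 to 9.80 at 6 h. The mean over the 41 probe sets was 11.04 and 10.71 in WT at 0 h (unmarked set first), 10.32 and 10.31 at 6 h, and 11.67 and 10.88 at 24 h. In Tg it was 10.99 and 10.97 at 0 h, 10.38 and 10.42 at 6 h, and 11.61 and 10.85 at 24 h. All 4 arrays at 6 h were thus below all 4 at 0 h, while at 24 h only the unmarked set exceeded every unstimulated array. For single members, all 4 arrays at 6 h lay below all 4 at 0 h in 32 of 41 replication-dependent probe sets, against a background of 19.9% of all probe sets. These were 17 of 17 with several symbols, which largely repeat the same H3 and H4 genes, and 15 of 24 with 1 symbol. The count was 1 of 6 for replacement histones, 0 of 5 for germ cell histones and 5 of 32 for DNA replication genes.

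**Figure D1:**
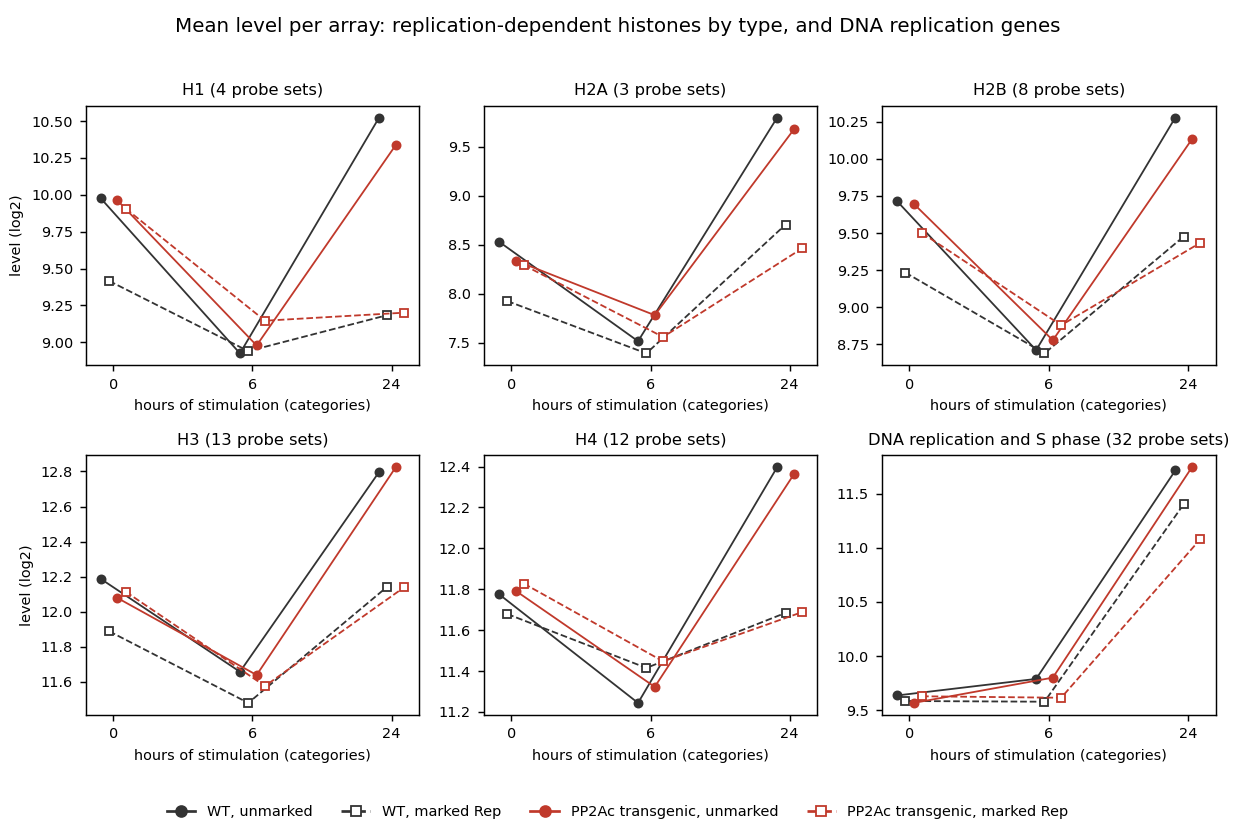
Mean log2 level per array of the replication-dependent H1, H2A, H2B, H3 and H4 probe sets and of 32 probe sets of DNA replication genes, at 0, 6 and 24 h of stimulation (drawn as categories, each panel with its own axis). Black is WT, red is PP2Ac transgenic, filled circles are the unmarked set and open squares the set marked Rep; every histone line is lowest at 6 h, and at 24 h the unmarked set is above the set marked Rep.

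At 6 h against 0 h the difference was negative in 41 of 41 probe sets in each genotype, with a median of -0.51 in WT and -0.49 in Tg, against medians over all probe sets within 0.03 of 0. The medians within the unmarked and the Rep set were -0.61 and -0.40 in WT and -0.46 and -0.51 in Tg. Of the 41, 5 passed the test as lower (adjusted p below 0.05, limma with Benjamini-Hochberg adjustment over 23410 probe sets) and 0 as higher in WT, where 13.9% of all probe sets were called lower and 26.5% in either direction. In Tg also 5 were called lower, where 12.9% of all were lower and 25.4% called in either direction. The share of called members is near the background in this fit. With the Rep mark as a block, 10 were called lower in each genotype, where 16.2% of all were lower in WT and 15.2% in Tg. Fitted on the arrays compared alone, 9 were called in WT and 35 in Tg, where 10.4% and 13.6% of all were lower. The count fell in WT without the unmarked array at 0 h, and in Tg without any of the 4 Tg arrays compared. By type, the WT median over probe sets ran from -0.41 for H4 and -0.49 for H3 to -0.63 for H1, -0.65 for H2B and -0.76 for H2A. The shared H3 and H4 probe sets enter these medians repeatedly, so this is not an order of genes. In these bulk samples fewer cells of a type and less RNA per cell cannot be told apart. The mean over 6 B cell markers moved alongside, from 10.54 to 10.76 at 0 h to 9.27 to 9.95 at 6 h and 10.27 to 10.94 at 24 h. Other marker means also read lower at 6 h. In WT and Tg the NK cell mean went from 8.72 and 9.16 at 0 h to 7.86 and 8.36 at 6 h and 7.41 and 7.95 at 24 h. The neutrophil mean ran from 8.94 to 12.40 at 0 h, 8.63 to 11.64 at 6 h and 7.88 to 11.32 at 24 h, lower at each step within each genotype and set. The CD4 T cell mean went from 13.22 and 13.19 to 12.82 and 12.72 and then 12.97 and 13.01. Its members went both ways at 6 h in each genotype. Cd5, Cd6, Cd28 and Ccr7 read higher than at 0 h. Cd3d, Cd3e, Cd3g, Cd247, Cd4, Lef1 and Il7r read lower, most of all Il7r (14.23 to 11.30 in WT). The mean of 2 CD8 T cell markers read higher at each step, 9.30, 9.41 and 10.07 in WT and 9.36, 9.72 and 10.60 in Tg. The part of these markers in the histone results, including the low 24 h values of H1f2 and H2bc4, was not tested.

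The same 5 genes were called at 6 h in both genotypes: H1f2, H2bc4, H2bc21, H2bc8 and H2ac15. H1f2, a linker histone (probe set 10404059), read 11.91 and 11.71 in WT at 0 h, 10.23 and 10.70 at 6 h and 10.60 and 9.75 at 24 h. In Tg it read 11.91 and 12.01, then 10.42 and 10.51, then 10.47 and 9.96. Every stimulated array was below every unstimulated one. At 6 h H1f2 fell by 1.34 ± 0.27 (SE) in WT, or 2.54-fold (adjusted p = 0.0053), and by 1.49 ± 0.27 in Tg (0.0031). At 24 h it was still 3.10-fold below 0 h in WT (difference -1.63 ± 0.27, adjusted p = 0.0021) and 3.34-fold in Tg (-1.74, 0.0020). Between 6 and 24 h the differences of -0.29 and -0.25 did not pass. Of the H1 probe sets, H1f2 was the one called lower at 24 h than at 0 h.

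H2bc4, a core histone H2B (10404053), was also low at both stimulated times. It read 11.28 and 10.19 in WT at 0 h, 8.96 and 8.93 at 6 h and 9.53 and 8.89 at 24 h. Tg arrays read 11.10 and 10.51, 8.82 and 9.13, and 9.15 and 9.25. It fell by 1.79 ± 0.34 in WT (3.46-fold, adjusted p = 0.0039) and by 1.83 ± 0.34 in Tg (0.0036) at 6 h. At 24 h it remained lower than at 0 h, by 1.52 ± 0.34 in WT (0.0099) and by 1.60 ± 0.34 in Tg (0.0089). The unstimulated arrays of this gene ran from 10.19 to 11.28, and the WT call at 24 h was lost without the unmarked WT array at 0 h (-0.98, adjusted p = 0.052) or without the Rep WT array at 24 h (-1.20, 0.074). The Tg call was lost without the unmarked Tg array at 0 h (-1.31, 0.071) or at 24 h (-1.56, 0.056). H2bc4 spans 8282 bases in RefSeq.

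H2bc21 (10494388), an H2B gene of the chromosome 3 cluster with a RefSeq span of 2667 bases, fell and then partly returned. It read 8.48 and 8.45 in WT at 0 h, 6.95 and 6.97 at 6 h and 8.18 and 7.90 at 24 h. In Tg it read 8.44 and 8.22, 6.77 and 6.97, and 8.05 and 7.66. No time point overlapped another. The fall at 6 h was 1.51 ± 0.15 in WT (2.85-fold, adjusted p = 0.00011) and 1.46 ± 0.15 in Tg (0.00013), the smallest adjusted p of all members. It then rose by 1.09 ± 0.15 from 6 to 24 h in WT (0.0025) and by 0.98 ± 0.15 in Tg (0.0034). The difference from 0 h at 24 h was -0.42 in WT (0.066) and -0.47 in Tg (0.047). That Tg call was lost under 15 alternatives, where the adjusted p reached 0.27.

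The other called falls at 6 h were smaller. H2bc8 (10404036) read 7.98 and 7.75 in WT at 0 h and 7.14 and 7.18 at 6 h, a difference of -0.70 ± 0.16 (adjusted p = 0.0090), lost without the unmarked WT array at 0 h (-0.59, 0.068). In Tg it differed by -0.54 ± 0.16 (0.032), and leaving out any of the 4 Tg arrays compared ended that call. H2ac15, the brightest H2A member (10408077), read 12.93 and 12.50 in WT at 0 h and 12.13 and 11.78 at 6 h, and differed by -0.76 ± 0.22 (0.033). That call was lost without the unmarked WT array at 0 h (-0.55, 0.19) or the Rep WT array at 6 h (-0.59, 0.18). In Tg it differed by -0.72 ± 0.22 (0.042), and this too was lost without any of the 4 Tg arrays compared.

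The replication-dependent histones read higher at 24 than at 6 h, in both sets. All 4 arrays at 24 h were above all 4 at 6 h for 33 of 41 probe sets, against 13.5% of all probe sets, and for 32 of 32 DNA replication probe sets. The 33 were 17 of 17 with several symbols, which largely repeat the same H3 and H4 genes, and 16 of 24 with 1 symbol. In WT, 20 of 41 rose and 0 fell, where 7.49% of all probe sets rose and 5.86% fell. In Tg 15 rose and 0 fell, where 7.89% of all rose and 6.42% fell. These calls name 11 distinct genes or gene groups of 28 in WT and 6 in Tg. The median difference was 1.02 in WT (1.24 in the unmarked set, 0.64 in the Rep set) and 0.91 in Tg (1.21 and 0.38). Without both Rep arrays at 24 h, 36 were called in WT and 33 in Tg, where 6.55% and 6.81% of all rose. Without both unmarked arrays at 24 h, 9 and 2 were called, where 4.31% and 4.30% of all rose, so that the Tg count was near the background. Fitted on the arrays compared alone, 2 were called in WT and 9 in Tg, where 2.51% and 5.75% of all rose. Trended and robust moderation gave 12 and 6, where 7.62% and 7.94% of all rose. The WT count fell without the unmarked WT array at 24 h or the Rep WT array at 6 h, and rose without the Rep WT array at 24 h. The Tg count fell without the unmarked Tg array at 24 h or either Tg array at 6 h. It rose without the Rep Tg array at 24 h or either WT array at 24 h. Leaving out 1 array also changed the share of all probe sets called, so these shifts are not read as a result about histones. By type the WT median over probe sets was 1.40 for H2A, 1.07 for H1, 1.07 for H3, 1.04 for H2B and 0.67 for H4. The shared H3 and H4 probe sets are counted repeatedly in these medians.

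H2bc3 (10404061), a core H2B gene, gave the largest called rise that both genotypes shared. It read 10.18 and 9.45 in WT at 0 h, 9.16 and 9.0 at 6 h and 12.26 and 11.07 at 24 h. Tg values were 10.43 and 10.05, 9.41 and 9.29, and 12.31 and 10.83. All arrays at 24 h were above all others. From 6 to 24 h it rose by 2.58 ± 0.49 in WT (6.00-fold, adjusted p = 0.0099) and by 2.22 ± 0.49 in Tg (4.67-fold, 0.017). The WT call was lost without the unmarked WT array at 24 h (2.00, 0.068) or the Rep WT array at 6 h (2.50, 0.053). The Tg call was lost without the unmarked Tg array at 24 h (1.49, 0.10) or without either Tg array at 6 h. Against 0 h it was the only replication-dependent member called higher at 24 h in WT, by 1.85 ± 0.49 (0.021), and in Tg the difference was 1.33 (0.086). That WT call was lost without the unmarked array at 24 h (1.26, 0.13) or the Rep array at 0 h (1.49, 0.13).

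**Figure D2:**
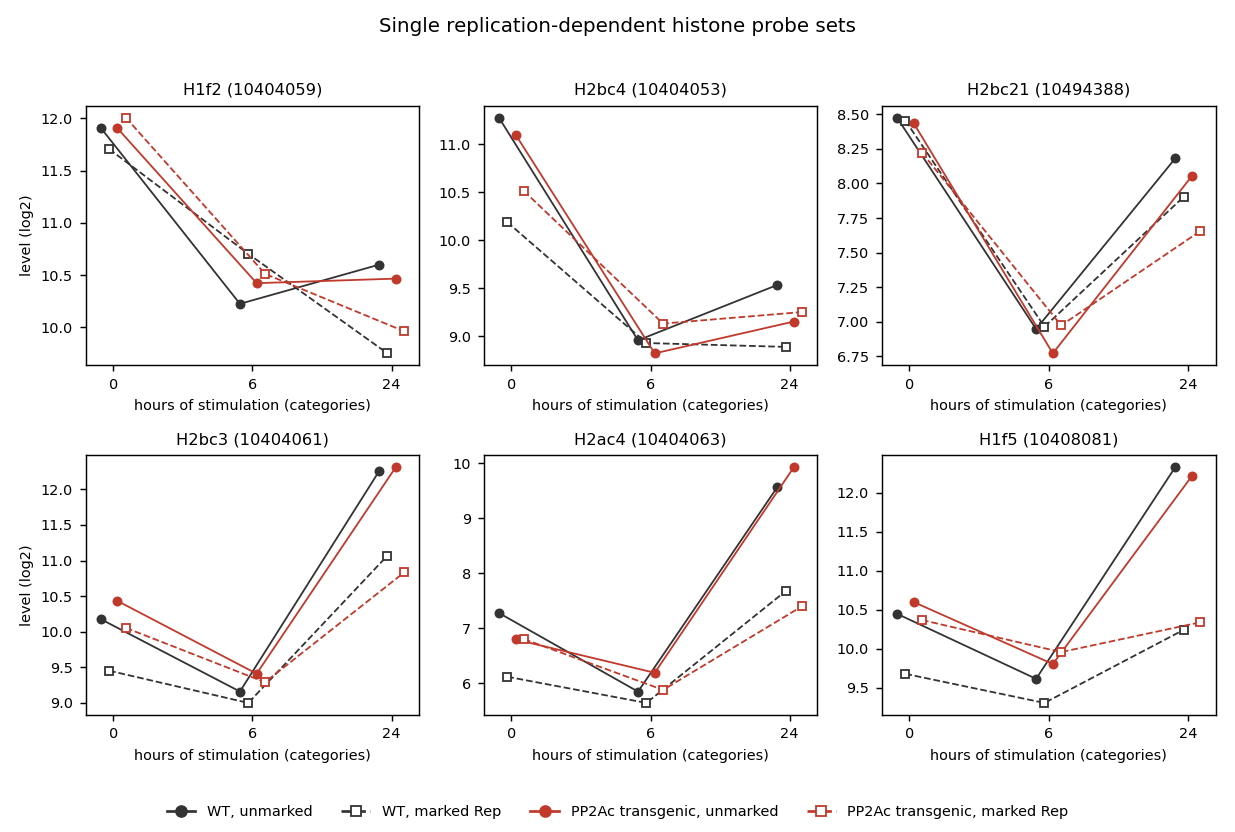
Log2 level on each array of 6 replication-dependent probe sets at 0, 6 and 24 h, drawn as categories, each panel with its own axis. H1f2 and H2bc4 are low at 6 h and remain low at 24 h, and H2bc21 partly returns. H2bc3 and H2ac4 are highest at 24 h on every line, most of all in the unmarked set. H1f5 is clearly highest at 24 h in the unmarked set only, and its Rep arrays at 24 h lie near the unstimulated ones.

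H2ac4, an H2A gene that neighbours H2bc3 (10404063), moved over the widest range but with a wide error. It read 7.28 and 6.12 in WT at 0 h, 5.85 and 5.64 at 6 h and 9.56 and 7.67 at 24 h. In Tg it read 6.80 and 6.80, 6.19 and 5.88, and 9.93 and 7.40. The sets differed by 1.89 in WT and 2.53 in Tg at 24 h. The rise from 6 to 24 h was 2.87 ± 0.80 in WT (adjusted p = 0.045) and 2.63 ± 0.80 in Tg (0.060). The WT call was lost when any of 9 of the 12 arrays was left out, with a difference of 1.92 (0.26) without the unmarked WT array at 24 h.

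The linker histones H1f5 (10408081) and H1f1 (10404069) also differed between the sets at 24 h. H1f5 read 10.45 and 9.68 in WT at 0 h, 9.61 and 9.30 at 6 h and 12.33 and 10.24 at 24 h. The Tg arrays gave 10.60 and 10.37, 9.80 and 9.96, and 12.22 and 10.34. At 24 h the unmarked arrays were above all others, and the Rep arrays lay near the unstimulated ones. H1f1 at 24 h read 11.92 and 10.07 in WT and 11.89 and 10.07 in Tg. The fitted differences from 6 to 24 h for H1f5, 1.83 ± 0.69 in WT and 1.40 ± 0.69 in Tg, did not pass (adjusted p = 0.13 and 0.25). H1f3 (10404033) and the probe set shared by H2bc6 and H1f4 (10408212) read lower on all arrays at 6 h than on any at 0 h. Their differences from 0 to 24 h, -0.02 and 0.00 in WT and -0.37 and -0.27 in Tg, were not called.

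H2ac15 and H2bc8 rose after their fall. H2ac15 rose by 1.40 ± 0.22 in WT (adjusted p = 0.0047) and by 1.07 ± 0.22 in Tg (0.013) between 6 and 24 h, and H2bc8 by 1.0 ± 0.16 (0.0044) and 0.70 ± 0.16 (0.018). The WT calls held with each array left out in turn. The Tg calls of both genes were lost without the unmarked Tg array at 24 h or without either Tg array at 6 h, where the adjusted p reached 0.10 for H2ac15 and 0.13 for H2bc8. H2bc14 (10403943), an H2B gene, read 10.68 and 10.48 in WT at 6 h and 13.00 and 11.70 at 24 h. Its rise of 1.77 ± 0.42 in WT was called (0.024), and that of 1.41 in Tg was not (0.056). The WT call was lost without either WT array at 6 h or the unmarked one at 24 h (1.13, 0.13). H2ac8 (10408204), a dim H2A probe set, read 4.56 and 4.74 in WT at 6 h and 6.18 and 5.38 at 24 h, a rise of 1.13 ± 0.28 (0.029). In Tg the difference was 0.50 (0.30). The WT call was lost without either WT array at 6 h or the unmarked array at 24 h (0.73, 0.17).

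The H3 and H4 probe sets that many genes share are among the brightest features of the array, at the 98th to 99th percentile of mean level. The 10 shared H3 probe sets ran together and are best read as 1 measurement of the H3 genes. For 10404028 the values were 13.87 and 13.47 in WT at 0 h, 13.31 and 13.07 at 6 h and 14.63 and 13.97 at 24 h. In Tg they were 13.76 and 13.72, 13.34 and 13.21, and 14.58 and 13.92. All arrays at 24 h were above all arrays at 0 h, which in turn were above all at 6 h. The 10 differences from 6 to 24 h ran from 1.02 to 1.14 in WT (adjusted p = 0.019 to 0.033) and from 0.91 to 1.10 in Tg (0.028 to 0.034), and all 10 were called in each. Those from 0 to 6 h (-0.57 to -0.48 in WT) and from 0 to 24 h (0.54 to 0.64) did not pass. For 10404028 and 10404065, followed with each array left out, the WT call was lost without the unmarked WT array at 24 h (0.78, 0.14 and 0.76, 0.13) or the Rep WT array at 6 h (1.0, 0.11 and 0.90, 0.11). For 10404028 it was also lost without the unmarked WT array at 6 h (1.24, 0.054). In Tg both lost the call without the unmarked Tg array at 24 h (0.64, 0.23 and 0.63, 0.19) or either Tg array at 6 h.

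Counted over probe sets, H4 had the smallest median difference of the types from 6 to 24 h. The 10 shared H3 and 5 shared H4 probe sets enter these medians repeatedly, so this is not an order of genes. The 5 shared H4 probe sets, of which 2 hold identical values on all arrays, differed by 0.50 to 0.67 in WT and 0.51 to 0.58 in Tg from 6 to 24 h, and none passed (adjusted p from 0.063 to 0.12). H4c6 (10408200) read 10.51 and 10.70 in WT at 6 h and 12.80 and 11.49 at 24 h. Its difference of 1.54 ± 0.43 in WT was called (0.047), but the call was lost when any of 9 of the 12 arrays was left out, with 0.89 (0.25) without the unmarked WT array at 24 h. In Tg its difference was 1.12 (0.13). The probe set shared by H4c17 and H4c11 (10403945) differed by 1.06 in WT (0.077) and 0.93 in Tg (0.11). H4c4 (10404051) and H2bc9 (10408197) lie outside the naming rule and are given because they complete the called rises. Their calls were not followed under the alternatives. H4c4 rose by 0.55 ± 0.15 in WT (0.044) and 0.57 ± 0.15 in Tg (0.038), and H2bc9 by 1.32 ± 0.36 in WT (0.044), with 1.05 in Tg (0.093). The H3 probe set of H3c7 (10404030) was dim on every array, at 4.80 to 5.12. H3c4 (10404038), at 7.37 to 8.03, differed from 6 to 24 h by 0.16 in WT and 0.26 in Tg, neither called. The probe set of H4c4 reads at the level of the shared H4 probe sets.

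Set against 0 h, the 24 h level depended on the set of arrays. In WT, 1 replication-dependent probe set was called higher and 2 lower, where 26.7% of all probe sets were called in either direction. In Tg, 0 were higher and 3 lower, where 23.8% of all were called. The median difference was 0.48 in WT (0.68 in the unmarked set, 0.23 in the Rep set) and 0.21 in Tg (0.67 and -0.07). Blocking on the Rep mark raised the counts to 17 in WT (14 higher, 3 lower) and 11 in Tg (8 higher, 3 lower), where 14.7% of all were higher in WT and 13.9% in Tg, and 16.6% and 14.4% lower. Without both Rep arrays at 24 h, 32 were called in WT (31 higher) and 30 in Tg (28 higher), where 9.38% and 10.4% of all were higher. Without both unmarked arrays at 24 h, 5 were called in WT (1 higher) and 3 in Tg (0 higher), where 11.4% and 7.59% of all were higher, and the Tg median was -0.05. The WT count rose with the Rep WT array at 24 h left out, and the Tg count with the Rep Tg array at 24 h left out. Without the unmarked Tg array at 0 h the Tg count fell. The DNA replication genes differed between sets at 24 h in the same direction, with median gaps of 0.25 in WT and 0.69 in Tg and 30 of 32 probe sets higher in the unmarked set in both.

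**Figure D3:**
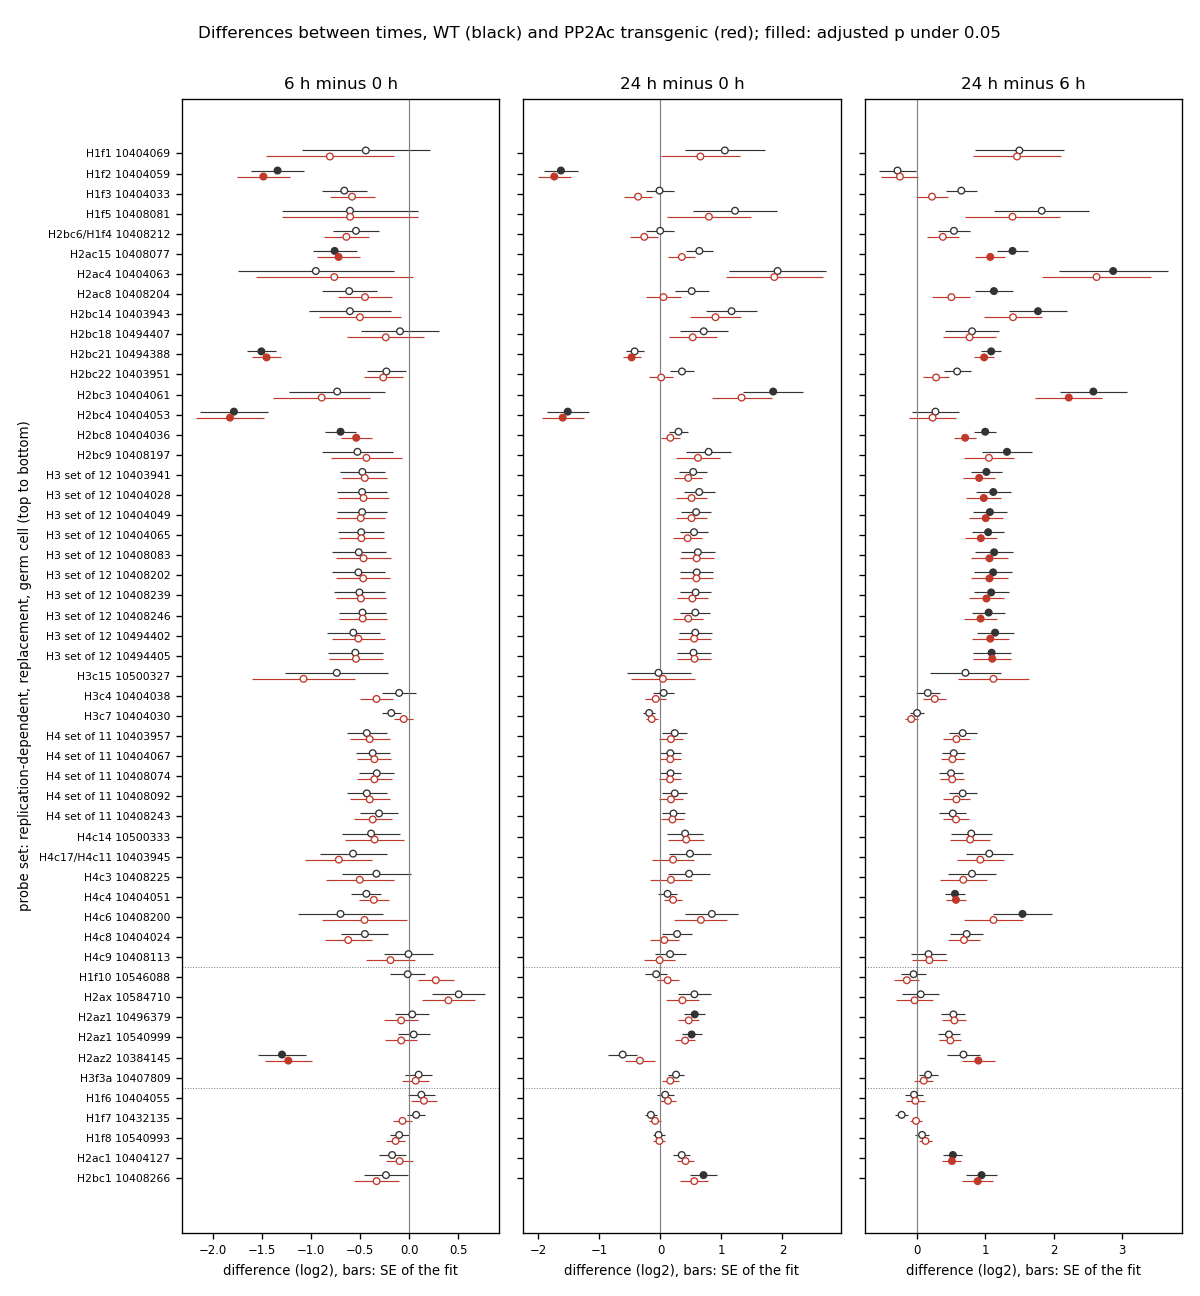
Fitted differences (log2) of all 52 histone probe sets between times, with bars for the standard error of the fit (2 arrays per group), in WT (black) and PP2Ac transgenic (red) cells. Filled points passed an adjusted p of 0.05; all 41 replication-dependent probe sets lie left of 0 in the first panel, while H1f2 and H2bc4 alone lie beyond -1 in the second.

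Replacement histones moved in different directions. H2az1, the main gene for H2A.Z, has 2 probe sets. The first (10496379) read 12.09 and 11.83 in WT at 0 h, 11.86 and 12.12 at 6 h and 12.66 and 12.38 at 24 h. In Tg it read 11.94 and 12.08, 11.75 and 12.09, and 12.65 and 12.29. All arrays at 24 h were above all others. It rose from 0 to 24 h by 0.56 ± 0.18 in WT (adjusted p = 0.042), and the second probe set (10540999) rose by 0.51 ± 0.16 (0.046). The Tg differences of 0.46 (0.093) and 0.40 (0.11) did not pass. Both WT calls were lost without any of the 4 WT arrays compared, or without either Tg array at 0 h, with adjusted p of up to 0.22 and 0.24. In the 6 to 0 h comparison the 2 probe sets differed by 0.03 and 0.05 in WT and by -0.08 and -0.08 in Tg, none called.

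H2az2, the other H2A.Z gene (10384145), fell at 6 h in both genotypes. It read 11.96 and 12.06 in WT at 0 h, 10.55 and 10.87 at 6 h and 11.76 and 11.02 at 24 h. In Tg the values were 11.71 and 11.96, 10.52 and 10.69, and 11.75 and 11.26. All arrays at 6 h were below all others. It fell by 1.30 ± 0.24 at 6 h in WT (2.46-fold, adjusted p = 0.0034) and by 1.23 ± 0.24 in Tg (2.35-fold, 0.0046), the only replacement probe set called at 6 h in either genotype. These falls kept their call with any 1 array left out. From 6 to 24 h it rose by 0.90 ± 0.24 in Tg (0.038), a call lost without any Tg array at 6 h or the unmarked one at 24 h (0.65, 0.25), among others. The WT difference was 0.68 (0.10).

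H2ax, which is phosphorylated at DNA breaks (10584710), was higher at 6 h than at 0 h on every array. It read 10.00 and 9.93 in WT at 0 h, 10.38 and 10.56 at 6 h and 10.82 and 10.22 at 24 h. On the Tg arrays it read 10.03 and 10.16, 10.43 and 10.57, and 10.90 and 10.02. The groups at 0 and 6 h did not overlap, but the differences of 0.50 ± 0.27 in WT (adjusted p = 0.23) and 0.40 in Tg (0.36) did not pass. H1f10, a linker histone made outside S phase (10546088), lay between 7.04 and 7.79 with no difference called. H3f3a, a gene for H3.3, has 1 member probe set (10407809), which read 6.11 to 6.61, below the array median on every array, and no difference was called. Its other probe sets lie outside the rule.

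**Figure D4:**
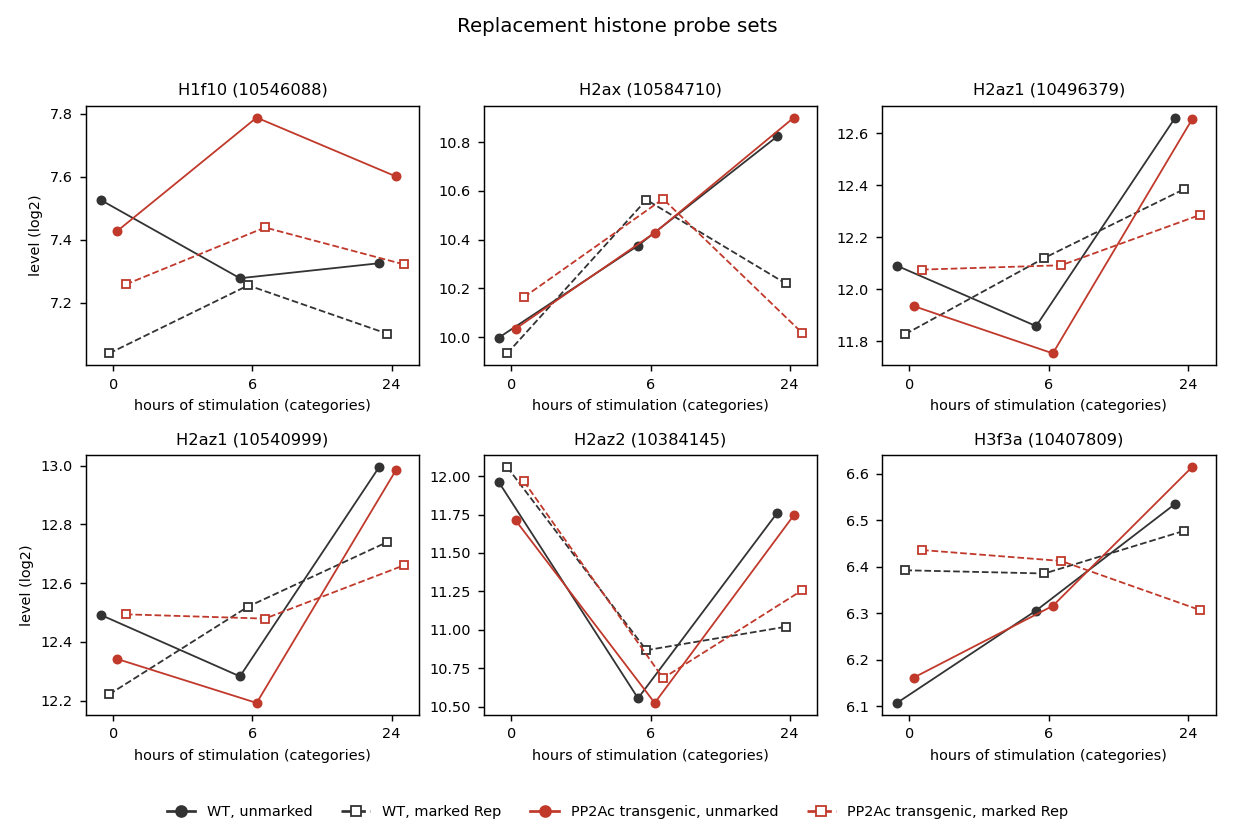
Log2 level on each array of the 6 replacement histone probe sets at 0, 6 and 24 h, drawn as categories, each panel with its own axis. H2az2 is lowest at 6 h on all arrays, both H2az1 probe sets are highest at 24 h, and H2ax is higher at 6 h than at 0 h.

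Of the 5 germ cell histones, H1f8 read below the lower quartile of the arrays on every array, and H2ac1, at 8.26 to 9.06, was the brightest. H1f6, H1f7 and H1f8, linker histones of testis and oocyte, were called in no comparison. H2ac1 (10404127) and H2bc1 (10408266), testis histones whose genes are divergent neighbours with starts 281 bases apart in the chromosome 13 cluster, rose together between 6 and 24 h. They lie outside the naming rule, and their calls were not followed under the alternatives. H2bc1 read 6.20 and 6.35 in WT at 6 h and 7.58 and 6.86 at 24 h, a rise of 0.94 ± 0.23 (adjusted p = 0.027), and it rose by 0.89 ± 0.23 in Tg (0.032). H2ac1 rose by 0.52 ± 0.14 in WT (0.038) and by 0.51 ± 0.14 in Tg (0.040). Against 0 h, H2bc1 was higher at 24 h in WT by 0.71 ± 0.23 (0.049). Signal from similar cluster genes on these probes was not tested.

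No histone probe set was called between genotypes. Tg against WT gave 0 of 52 called at 0, 6 and 24 h by limma, where 0.00854% of all probe sets were called at each time, and 0 of 52 had an unadjusted p below 0.05 at any time. This fit leaves out the pairing by the Rep mark, so the gap between the sets at 24 h enters its error. The median difference over the 41 replication-dependent probe sets was 0.07 at 0 h, 0.08 at 6 h and -0.02 at 24 h. At 0 h 36 of 41 were positive, but the sets gave medians of -0.04 (unmarked) and 0.24 (Rep), and the WT array marked Rep at 0 h was the lowest of the 4. That array also had the lowest mean of the neutrophil markers at 0 h, 8.94 against 11.34 to 12.40. Their part in the difference was not tested. At 0 h 5 of 41 had both Tg arrays above both WT arrays, as did 12.8% of all probe sets, and 2 the reverse, against 20.5% of all. At 6 h 12 of 41 were above and 2 below, against 11.1% and 14.1% of all. At 24 h 0 were above and 0 below, against 14.5% and 16.2%. The class median turned negative at 0 h without the WT array marked Rep (-0.05), and positive at 24 h without the unmarked WT array (0.32) or the Rep Tg array (0.29).

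**Figure D5:**
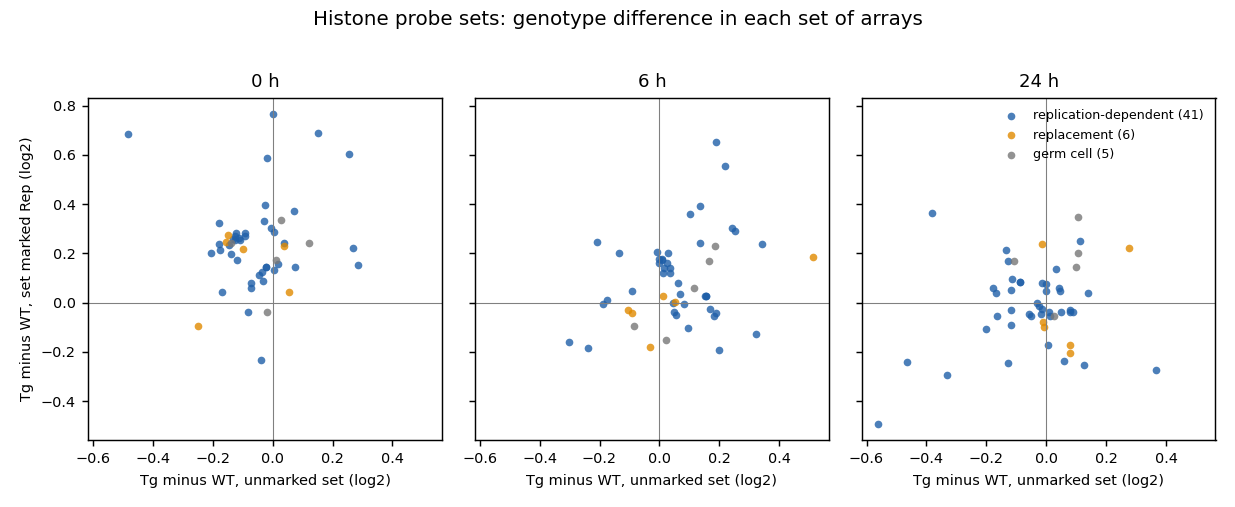
Difference between PP2Ac transgenic and WT arrays (log2) for each of the 52 histone probe sets, in the unmarked set (horizontal) and in the set marked Rep (vertical), at 0, 6 and 24 h. At 0 h most replication-dependent probe sets are above 0 in the Rep set and near or below 0 in the unmarked set, and at 24 h they scatter around 0 in both.

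The smallest unadjusted p values were in members of modest size, and none passed. At 24 h H2ac8 differed by -0.53 (95% interval -1.16 to 0.10), H1f3 by -0.35 (-0.87 to 0.17) and H2bc22, an H2B gene, by -0.31 (-0.76 to 0.13). At 6 h H2ac15 differed by 0.26 (-0.24 to 0.77), H3c4 by -0.21 (-0.60 to 0.18) and H2bc8 by 0.19 (-0.17 to 0.54). At 0 h H2bc3 differed by 0.43 (-0.68 to 1.54), H2ac15 by 0.22 (-0.28 to 0.73) and H2bc21 by -0.14 (-0.47 to 0.20). The interval was wide for H2bc3 and narrower for H2bc21. For the genes that fell, the Tg minus WT difference at 6 h was 0.00 for H1f2 (-0.61 to 0.62), 0.03 for H2bc4 (-0.74 to 0.81) and -0.11 for H2az2 (-0.65 to 0.44).

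Whether the response itself differed between genotypes was tested as the difference of differences. Again 0 of 52 were called, as was 0% of all probe sets, and 0 of 52 had an unadjusted p below 0.05. The medians over the replication-dependent class were 0.01 for 6 against 0 h, -0.11 for 24 against 0 h and -0.09 for 24 against 6 h. H2ac8 differed by -0.62 (-1.52 to 0.27) from 6 to 24 h and by -0.46 (-1.35 to 0.43) from 0 to 24 h. H2bc3 differed by -0.52 from 0 to 24 h, with a wider interval (-2.09 to 1.06). H1f3 differed by -0.43 (-1.16 to 0.30) from 6 to 24 h and by -0.35 (-1.08 to 0.38) from 0 to 24 h. H2bc8 differed by 0.16 (-0.34 to 0.66) from 0 to 6 h and by -0.29 (-0.80 to 0.21) from 6 to 24 h. H2bc22 differed by -0.34 (-0.97 to 0.29) from 0 to 24 h. From 0 to 6 h, H3c4 differed by -0.23 (-0.78 to 0.32) and H3c7 by 0.13 (-0.19 to 0.44).

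Genes that serve histone supply were followed beside the histones. Slbp, whose product binds the histone stem-loop (10529299), read 10.50 and 10.40 in WT at 0 h, 10.62 and 10.69 at 6 h and 11.58 and 11.53 at 24 h. On the Tg arrays it read 10.67 and 10.69, 10.71 and 10.86, and 11.65 and 11.27. This probe set did not pass at 6 h (0.21 in WT, adjusted p = 0.27) and rose by 1.11 ± 0.12 at 24 h in WT (0.00028) and by 0.79 ± 0.12 in Tg (0.0018). A second Slbp probe set (10412559) had WT means of 9.87, 10.19 and 11.03 at 0, 6 and 24 h. In Tg the means were 9.95, 10.24 and 10.88. On that probe set all arrays at 6 h were above all at 0 h. Npat, the coactivator of histone transcription, did not pass at 24 h (0.17 in WT, 0.11 in Tg). Casp8ap2, a component of the histone locus body, rose by 0.47 ± 0.12 in WT (0.019), with 0.36 in Tg (0.063). Of 18 probe sets of histone mRNA transcription and processing genes, 9 rose and 2 fell at 24 h against 0 h in each genotype, with medians of 0.43 in WT and 0.35 in Tg. Of all probe sets, 12.9% were higher and 13.8% lower in WT, and 23.8% were called in either direction in Tg. Lsm11, of the U7 snRNP that trims histone mRNA, fell by 0.52 in WT (0.0046) and in Tg (0.0057). Sympk probe sets disagreed: 10401933 and 10504759, which hold identical values and count as 2 of the 18, rose by 1.03 in WT (0.00035), and 10550531 differed by 0.12 (0.42).

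Histone chaperones and DNA replication genes were mostly higher at 24 h than at 0 h. Among 22 chaperone probe sets, 13 rose and 1 fell at 24 h in each genotype, with medians of 0.62 in WT and 0.49 in Tg. Hat1, which acetylates new H4, already rose at 6 h, by 1.29 ± 0.10 in WT (adjusted p = 3.5e-05) and by 1.34 ± 0.10 in Tg (3.5e-05). Chaf1a and Chaf1b, of the complex that deposits H3 and H4 on new DNA, rose by 2.90 ± 0.26 (0.00012) and 2.16 ± 0.20 (0.00016) in WT at 24 h. In Tg they rose by 2.48 (0.00035) and 2.00 (0.00034). Of 32 DNA replication probe sets, 31 rose and 0 fell at 24 h in WT, against 12.9% and 13.8% of all. Their median was 2.11. Mcm5 and Mcm3, subunits of the replicative helicase, rose by 1.88 (2.7e-05) and 2.24 (2.7e-05), and E2f1, a transcription factor of S phase genes, by 2.72 (3.0e-05). The same class mean at 6 h was 9.58 to 9.80, against 9.57 to 9.64 at 0 h. Of the variants outside the rule, Macroh2a1 rose by 0.42 in WT at 24 h (0.0031), while H2aj (-0.11, 0.52) and Cenpa, the centromeric H3 (-1.08, 0.16), did not pass.

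Within the class, members varied together across the 12 arrays. The median Pearson correlation between pairs of replication-dependent probe sets was 0.89, over 12 arrays that share groups, sets and, for near-identical genes, probes. H1f2 (0.14), H3c7 (0.11) and H2bc4 (0.31) had the lowest correlations with the class mean, and the H4 probe sets shared by 11 genes the highest, 0.98 to 0.99. Among 20335 other probe sets with 1 symbol, those most like the class mean over the 12 arrays were Cdkn2c (0.977), an inhibitor of G1 kinases, Kif23 (0.975) and Kif22 (0.969), mitotic kinesins, Knstrn (0.969), a kinetochore gene, and Arhgap19 (0.967). The correlations are descriptions, since the points share the time course.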

How the data were processed

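The authors deposited 1 table of log2 intensity values, 1 column for each of the 12 arrays. The background correction, summarisation and normalisation behind it are not given in the sources used here. Array medians as deposited were 7.39 to 7.50. The columns were quantile-normalised between arrays, and limma 3.58.1 (R 4.3.3) was fitted to 6 group means and variances moderated by eBayes (6 residual degrees of freedom, 3.05 prior). Benjamini-Hochberg adjustment ran over the 23410 probe sets with a gene symbol in the platform annotation (21789 with 1 symbol, 1621 with several), and 0.05 was the threshold. The 5443 probe sets with no symbol were not tested. No filter on low values was applied, so all 52 members were tested. The number of arrays limits the precision. The fits were tested on simulated data. Intervals are 95%, at 9.05 degrees of freedom.

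There were 12 comparisons: 3 between times in each genotype, 3 between genotypes, and 3 differences of responses. Comparisons that share arrays are not independent. Named genes are all replacement probe sets, the replication-dependent ones with the smallest p per type or the largest differences in WT from 0 to 24 h, and those with the smallest p in each genotype comparison. Of the gene lists, Slbp, Npat, Casp8ap2 and the smallest p values are named, and the 5 probe sets most correlated with the class mean. Members and lists were chosen with earlier results of these data known. Deviations from group means correlated positively in 15 of 15 pairs of groups (0.14 to 0.59), so the Rep mark may pair the arrays. The main fit has no block for that mark, and its errors, p-values and intervals leave the pairing out. The mark was used as a block only in alternative fits. Blocked values are given where they change a call or a count by over 1.5 times. Promoter sequences and positions are from RefSeq (GRCm38.p6), which held all 51 genes, 45 of them with a promoter window. The other alternatives are given after the report.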

Additional observations from a re-analysis of the deposited data

How the results depend on the processing

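The calls of H4c4, H2bc9, H2ac1, H2bc1 and the shared H3 probe sets other than 10404028 and 10404065 were not followed under the alternatives. None of the 37 calls of named histones followed singly changed direction under any alternative run. Class medians that were near 0 or rested on the set of arrays did: in Tg at 24 against 0 h the replication-dependent median of 0.21 was -0.05 without the unmarked Tg array at 24 h, and the replacement median of 0.26 was -0.01. The other medians that changed sign belong to replacement histones at 6 against 0 h, to the genotype comparisons and to the differences of responses. The counts of replication-dependent (41) and replacement (6) probe sets called between genotypes, and in the differences of responses, stayed at 0 under every alternative, including the Rep mark as a replicate block and that block within each time. Of the 37 calls of named histones followed singly, 12 were kept under all alternatives and 25 lost under at least 1, among them the calls of H2ac4, H4c6 and H2az1; the replicate block lost none of them. With that block, the replication-dependent counts were 10 at 6 against 0 h in each genotype, and 17 in WT and 11 in Tg at 24 against 0 h (5, 5, 3 and 3 in the report). Of all probe sets, that block called 30.5% in WT and 29.4% in Tg at 6 against 0 h. At 24 against 0 h it called 31.3% and 28.2%. Fitted on the arrays of the groups compared alone, the replication-dependent counts were 9 in WT and 35 in Tg at 6 against 0 h, 1 in WT at 24 against 0 h, and 2 in WT and 9 in Tg at 24 against 6 h, while the replacement counts were 2 in each genotype at 6 against 0 h and 0 in WT at 24 against 0 h. Of all probe sets, this fit called 20.0% in WT and 26.1% in Tg at 6 against 0 h. It called 19.5% in WT at 24 against 0 h, and 3.24% in WT and 10.4% in Tg at 24 against 6 h. For replication-dependent probe sets, trended and robust moderation gave 12 in WT and 6 in Tg at 24 against 6 h, members with a single symbol 10 and 5 (fewer members), and median centring 5 in WT at 24 against 0 h. Of all probe sets, that moderation called 13.5% in WT and 14.6% in Tg, and median centring 23.4% in WT. Without both Rep arrays at 24 h the counts at 24 against 0 h were 32 in WT and 30 in Tg, and at 24 against 6 h 36 and 33; without both unmarked arrays at 24 h they were 5 in WT at 24 against 0 h, and 9 and 2 at 24 against 6 h. Both of these, and the block within time, were chosen after seeing the data. For replacement histones, the counts in WT at 24 against 0 h were 0 with the 3 Rep arrays of WT left out and 1 with the unmarked arrays at 24 h left out, those in WT at 24 against 6 h were 1 with the Rep arrays of WT, or the Rep arrays at 24 h, left out, and in Tg 1 at 24 against 0 h without the Rep arrays and 0 at 24 against 6 h without the unmarked ones. With each array left out in turn, the replication-dependent counts ran from 3 to 7 in WT and 3 to 6 in Tg at 6 against 0 h, from 2 to 13 in WT and 1 to 9 in Tg at 24 against 0 h, and from 3 to 32 in WT and 1 to 24 in Tg at 24 against 6 h. The replacement counts ran from 0 to 2 in WT and 0 to 1 in Tg at 24 against 0 h, from 0 to 1 in each genotype at 24 against 6 h, and stayed at 1 at 6 against 0 h. The highest counts in WT at 24 h came without the WT Rep array at 24 h, and in Tg without the Tg Rep array at 24 h or, from 6 h, either WT array at 24 h. An array left alone in its group is assumed to vary like the other groups. Leaving out arrays also changed the share of all probe sets called, so these counts are not read as a result about histones. The cause of these differences was not tested.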

Other observations

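In all, 15 probe sets carry a histone symbol together with another symbol. They are H2B sets with H4bc24, H2A sets with symbols such as the pseudogene H2af-ps2, and H3.3 sets with a predicted gene. The H3.3 sets were not read apart from the H2A and H2B sets. The pooled mean of the 15 moved in the direction of the cluster genes. It was 12.89 to 13.15 at 0 h, 12.65 to 12.84 at 6 h and 13.12 to 13.44 at 24 h over the arrays of both genotypes. All 4 arrays at 6 h were below all 4 at 0 h in 9 of 15, against 19.9% of all probe sets, and all 4 arrays at 24 h above all 4 at 6 h in 11 of 15, against 13.5%. Because they can read histone genes or their copies, these probe sets were kept out of the class.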
